A study of Mus musculus with 6 samples.

Results

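The 9 complement genes C1qa, C1qb, C1qc, C1ra, C1s1, C2, C4b, Cfb and C3 were described in single cells of the lower abdominal muscle (LAM) of mice. They were chosen by name, as the main early components of the cascade, out of 16494 genes in the count table, and all 9 had a row in it. None of them is a complement regulator. Regulators and receptors were covered through a longer pathway list.

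Complement is a system of secreted proteins that mark targets for phagocytes, draw in inflammatory cells and can lyse membranes. In the classical pathway, C1q binds a target and activates the proteases C1r and C1s, which cut C4 and C2 into a convertase that in turn cuts C3. In the alternative pathway, factor B joins C3b that is already deposited and forms a further C3 convertase. The liver is the main source of the circulating proteins, and macrophages are a known source of C1q in tissues.

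The samples were LAM tissue from 3 wild-type (WT) and 3 Aromhum male mice of the FVB/N strain, 9 to 10 weeks old, with 1 10x Genomics 3' library per mouse. Aromhum mice carry the human aromatase gene CYP19A1 under its own native promoters, which are tissue-specific, and aromatase turns androgens into estrogens. The Aromhum mice had scrotal hernias, and the WT mice were littermates without the transgene. Tissue was digested with collagenase and dispase and strained, a step meant to remove multinucleated fibres, although some cells with markers of muscle fibres, called myonuclei here, remained. On each of the 3 processing dates 1 WT and 1 Aromhum littermate were taken. The mice are called WT1 to WT3 and Arom1 to Arom3.

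Of 63647 barcodes, 59227 with at least 200 genes and 1000 UMIs (unique molecular identifiers, counts of captured RNA molecules) were kept, and 18852 fell within the full limits of the study on genes and mitochondrial UMIs. The mice held 64658769 to 71991374 UMIs in WT and 92259771 to 111263527 in Aromhum, with a median of 5621 to 6412 UMIs per cell in WT and 7057 to 9360.5 in Aromhum. CYP19A1 had 0 UMIs in each WT mouse and 767, 792 and 784 UMIs in Arom1, Arom2 and Arom3. Of 63175 distinct barcode sequences, 471 occurred in 2 or more libraries. Cells were sorted into 11 cell types and 6 fibroblast subtypes by marker genes, and each name below stands for cells that resemble that type by its markers. No defining marker of a type was at 0 in that type. The complement genes were left out of the clustering. A level is given in CPM, the UMIs of a gene scaled to the non-mitochondrial UMIs of that group of cells in 1 mouse. UMIs come from the 3' end of a transcript, and no length scale was applied, so levels are compared between cells and mice and not between genes.

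In the mouse genome (GRCm38, GENCODE M21) the members lie in 4 places. C1qa (chr4:136895917-136898803), C1qc (chr4:136889804-136893065) and C1qb (chr4:136880129-136886187), all on the minus strand, are neighbours. C1ra (chr6:124512405-124523443, plus strand) lies beside C1s1 (chr6:124530345-124542359, minus strand). C2 (chr17:34862604-34898265), Cfb (chr17:34856374-34862518) and C4b (chr17:34728380-34743882) share the minus strand of the major histocompatibility region. C3 (chr17:57203970-57228136, minus strand) lies further along the same chromosome.

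By mean level the C1q chains were highest in macrophages, and C1ra, C1s1 and C3 in mesothelial cells. For C1ra and C1s1 the mesothelial range over mice overlapped that of fibroblasts. The RefSeq table of promoters held 5 of the 9 members, and these are shown because they include chains of C1q, these proteases and C3. Each runs 5′ to 3′ on the strand of its gene, from 250 bases before to 50 bases after the start site (build GRCm38.p6), and capitals mark every motif match found on either strand.
C1qb (chr4:136886151-136886450, minus strand): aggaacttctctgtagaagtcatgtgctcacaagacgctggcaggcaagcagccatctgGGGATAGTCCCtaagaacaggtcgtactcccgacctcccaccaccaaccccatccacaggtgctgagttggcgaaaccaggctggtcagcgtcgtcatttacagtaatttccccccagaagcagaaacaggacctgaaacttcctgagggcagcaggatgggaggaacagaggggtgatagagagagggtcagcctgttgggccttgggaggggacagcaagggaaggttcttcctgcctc
C1qc (chr4:136892865-136893164, minus strand): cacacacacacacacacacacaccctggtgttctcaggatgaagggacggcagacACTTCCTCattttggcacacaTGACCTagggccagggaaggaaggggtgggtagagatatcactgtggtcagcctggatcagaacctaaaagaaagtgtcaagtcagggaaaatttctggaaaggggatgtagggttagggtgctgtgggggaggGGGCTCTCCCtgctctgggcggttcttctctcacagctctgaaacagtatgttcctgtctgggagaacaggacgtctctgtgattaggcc
C1ra (chr6:124512371-124512670, plus strand): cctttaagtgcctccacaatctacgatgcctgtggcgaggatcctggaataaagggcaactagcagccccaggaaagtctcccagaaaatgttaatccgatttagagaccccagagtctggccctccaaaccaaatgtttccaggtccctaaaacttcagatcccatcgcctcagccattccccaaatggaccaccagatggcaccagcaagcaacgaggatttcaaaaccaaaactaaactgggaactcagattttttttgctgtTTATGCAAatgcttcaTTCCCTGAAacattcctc
C1s1 (chr6:124542310-124542609, minus strand): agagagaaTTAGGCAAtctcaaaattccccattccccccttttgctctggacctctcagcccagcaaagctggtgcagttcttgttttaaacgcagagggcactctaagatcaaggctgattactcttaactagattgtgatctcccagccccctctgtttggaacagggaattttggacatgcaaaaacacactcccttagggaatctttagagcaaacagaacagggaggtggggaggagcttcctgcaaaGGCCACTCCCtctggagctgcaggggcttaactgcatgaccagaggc
C3 (chr17:57228087-57228386, minus strand): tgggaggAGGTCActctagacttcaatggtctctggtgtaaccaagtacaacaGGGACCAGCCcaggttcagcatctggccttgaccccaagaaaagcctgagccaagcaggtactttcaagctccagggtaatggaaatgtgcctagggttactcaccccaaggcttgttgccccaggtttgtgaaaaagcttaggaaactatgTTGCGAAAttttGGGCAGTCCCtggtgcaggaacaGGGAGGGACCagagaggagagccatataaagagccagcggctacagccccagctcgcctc

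The motifs searched, on both strands, were the estrogen response element (GGTCA and TGACC with 3 bases between them), its single arm AGGTCA, an NF-kB motif (GGGA and CC with 4 bases between them), a C/EBP motif TTGCNNAA, a PU.1 motif GAGGAAGT, a STAT motif TTCNNNGAA and an interferon response motif (GAAA and GAAA with 2 bases between them). They occurred in 0.0700%, 16.3%, 20.7%, 10.8%, 3.20%, 8.30% and 3.44% of all 32851 promoters of this length, in that order. The C1qc window held the PU.1 motif, first base at position -195 from its start site, and the C1qb window held no match to it. PU.1 is a transcription factor of myeloid cells. The C3 window held 3 NF-kB matches, at positions -197, -33 and -10, and 1 C/EBP match at position -45. In C1ra a C/EBP and a STAT match lay just after the start, and in C1s1 a C/EBP match lay at position -242. The single arm AGGTCA was matched in C1qc and C3, and the full estrogen response element in none of the 5 windows. These matches describe the letters of the windows and are not binding sites. Within C1qb, the capitals cover 2 overlapping NF-kB matches, and C1qc and C1s1 held 1 NF-kB match each.

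The C1q chains were highest in macrophages. C1qa, the A chain, stood at 2139.6 ± 1298 CPM (SD, n = 6) in macrophage/monocyte cells and at 132 ± 83.9 CPM in dendritic cells, the next in order. The ranges over mice of these groups did not overlap, and that of dendritic cells did not overlap the range of the T cells below it. C1qb stood at 1680.1 ± 1032 CPM and C1qc at 889 ± 546 CPM in macrophages, again clear of the dendritic cells. With coarser clusters (resolution 0.4) the macrophage levels of C1qa, C1qb and C1qc were 1356, 1075 and 565 CPM, and with the column blocks of the deposited table as clusters, an alternative chosen after the data were seen, 1273, 1008 and 531 CPM. Macrophages held 86.3% ± 10.1 of the C1qa UMIs of a mouse (SD, n = 6), and dendritic cells 8.44% ± 9.37. Arom3 was the exception to this split, with 69.4% of its C1qa UMIs in macrophages and 25.6% in dendritic cells, and macrophages were 0.995% of its cells. The 10 macrophage markers summed to 17551 to 26097 CPM in macrophages and 13515 to 20783 CPM in dendritic cells, ranges that overlapped. How far the split of C1q depends on the border between these clusters was not tested.

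In macrophages, 60.7% ± 22.9 of WT and 72.7% ± 16.5 of Aromhum cells had a C1qa UMI (SD, n = 3 each; median 5600.5 and 5021 UMIs per cell). Muscle stem cells and myoblasts, which are not known to make C1q, gave 0.205% ± 0.201 and 1.39% ± 1.02 at a median of 4396 and 3925 UMIs. With each cell thinned to 1000 UMIs, the macrophage shares were 46.1% and 63.8%. The 3 chains kept a near ratio to each other across the cell types. C1qb UMIs per C1qa UMI were 0.801 in macrophages and 0.574 to 1.09 over the 11 cell types, and C1qc UMIs per C1qa UMI were 0.419 in macrophages and 0.309 to 0.488 over all types.

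The proteases C1ra and C1s1, which C1q activates, were spread over mesothelial cells and fibroblasts. C1ra stood at 185 ± 49.5 CPM in mesothelial cells (SD, n = 6) and at 163 ± 44.4 CPM in Dmkn-hi fibroblasts, and C1s1 at 391 ± 45.4 CPM in mesothelial cells and 386 ± 82.5 CPM in fibroblasts of the Tppp3 Myoc group. Neighbours in both orders overlapped from mesothelial cells through the Mmp3-hi and Tppp3 Myoc fibroblasts to those of the Prg4 Angptl1 group. Fibroblast-like cells held 80.1% ± 5.85 of the C1ra and 77.9% ± 5.93 of the C1s1 UMIs of a mouse. C1s1 was also seen in smooth muscle and pericytes, at 208 ± 65.4 CPM. Both genes have near copies, C1rb and C1s2, that share 19.1% and 17.96% of the 50-base windows in the last 500 bases of their transcripts. Reads from these stretches may not tell the copies apart, and the effect on the counts was not measured.

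The mesothelium, the lining layer of the abdominal wall, was the highest group for C2, Cfb and C3. C2, the protease that joins C4 in the classical convertase, stood at 767 ± 218 CPM in mesothelial cells (SD, n = 6) against 105 ± 39.5 CPM in Mmp3-hi fibroblasts, with no overlap of ranges. C3, on which all pathways converge, stood at 7530.1 ± 2113 CPM in mesothelial cells, and its lowest mesothelial value, 5559 CPM, lay above the highest value in any other group, 3709 CPM in Mmp3-hi fibroblasts of Arom1. Cfb, the protease of the alternative pathway, stood at 118 ± 67.2 CPM in mesothelial cells and 47.8 ± 54.9 CPM in Mmp3-hi fibroblasts, which overlapped. C2 and Cfb are adjacent genes of like function, but their transcripts shared 0% of the 50-base windows.

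C4b, the substrate of C1s, varied widely between mice. It stood at 821 ± 614 CPM in Mmp3-hi fibroblasts (SD, n = 6), 636 ± 758 CPM in Dmkn-hi fibroblasts, 632 ± 409.7 CPM in mesothelial cells, 361 ± 250.3 CPM in macrophages and 265 ± 159 CPM in glial cells. None of these neighbours differed beyond its range over mice. Within the full limits on cells the Mmp3-hi level was 1547 CPM over the 4 mice that kept at least 10 of these cells, which left out WT2 and WT3. C4b has a near copy, C4a, with which it shares 38.1% of the windows at its end, and C4a was not analysed here. Reads from these stretches may not tell the copies apart, so C4b counts are uncertain, by an amount that was not measured.

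**Figure D1:**
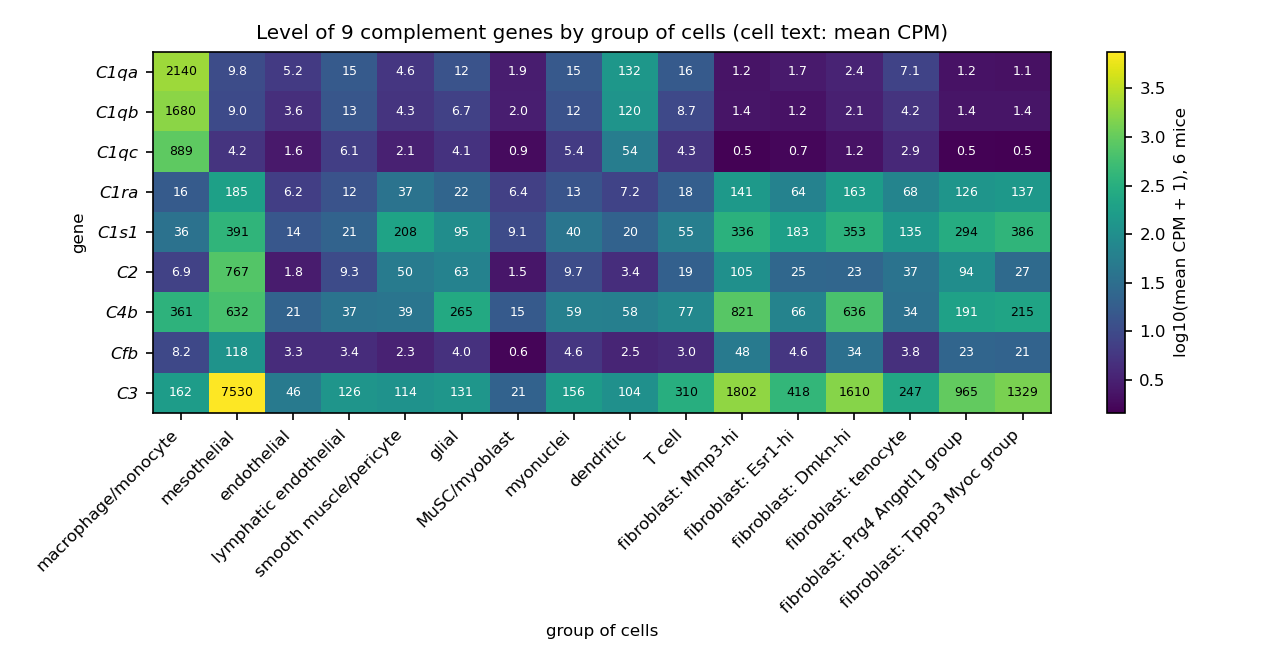
Rows are the 9 genes, columns are 10 cell types and 6 fibroblast subtypes, colour is log10 of the mean CPM + 1 over 6 mice, and the text in each field is the mean CPM. The C1q chains are brightest in macrophages, with 2140 CPM for C1qa (2139.6 before rounding), and C2, Cfb and C3 in mesothelial cells, with 7530 CPM for C3 (7530.1 before rounding).

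By the similarity of log2(CPM + 1) over the 16 groups of cells, among 11607 genes, C3 was most like Col6a5 (Pearson r = 0.962), Cfb (0.939) and Clec3b (0.938). C4b was most like Chil1 (0.875), Cfb (0.864) and Plac8 (0.862), and Plac8 was one of the markers used to name Mmp3-hi fibroblasts. C1qa was most like C1qb (0.994), C1qc (0.993) and C3ar1 (0.960), which encodes a receptor for a C3 fragment. These are descriptions over groups that come from the same 6 libraries.

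Summed over every cell, 6 of the 9 genes were higher in each Aromhum mouse than in any WT mouse, as were 22.3% of the 13211 genes with a mean of at least 1 CPM. C3 stood at 701, 411 and 234 CPM in WT1, WT2 and WT3 and 2043, 2138 and 1357 CPM in Arom1, Arom2 and Arom3, and C4b at 123, 27.5 and 29.8 CPM in WT1, WT2 and WT3 and 605, 700.1 and 186 CPM in Arom1, Arom2 and Arom3. The 6 members, C1ra, C1s1, C2, C4b, Cfb and C3, showed no overlap between genotypes (two-sided exact permutation test, p = 0.1, the smallest p that 3 against 3 mice allow), and the 3 C1q chains overlapped (exact p = 0.2). These sums move with the make-up of the libraries. Of all cells, mesothelial cells were 1.56, 1.72 and 0.893% in WT1, WT2 and WT3 and 5.71, 7.62 and 7.89% in Arom1, Arom2 and Arom3. Macrophages were 2.45, 1.52 and 0.893% in WT1, WT2 and WT3 and 13.5, 6.53 and 0.995% in Arom1, Arom2 and Arom3.

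Of the C3 UMIs, mesothelial cells held 18.1, 49.3 and 34.5% in WT1, WT2 and WT3 and 41.2, 45.6 and 70.4% in Arom1, Arom2 and Arom3. Of the C2 UMIs they held 34.3, 59.2 and 37.3% in WT1, WT2 and WT3 and 49.7, 57.1 and 83.6% in Arom1, Arom2 and Arom3. Within the full limits on cells the mean shares over the mice were 20.7% of C3 and 29.3% of C2 UMIs, in place of 43.2% and 53.5%. The genotypes overlapped in both, and Arom3 was the highest mouse. Of the C4b UMIs, fibroblast-like cells held 79.01, 44.5 and 51.5% in WT1, WT2 and WT3 and 71.7, 81.2 and 39.8% in Arom1, Arom2 and Arom3, where WT2, WT3 and Arom3 were low. The groups of cells were therefore compared between genotypes 1 at a time.

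**Figure D2:**
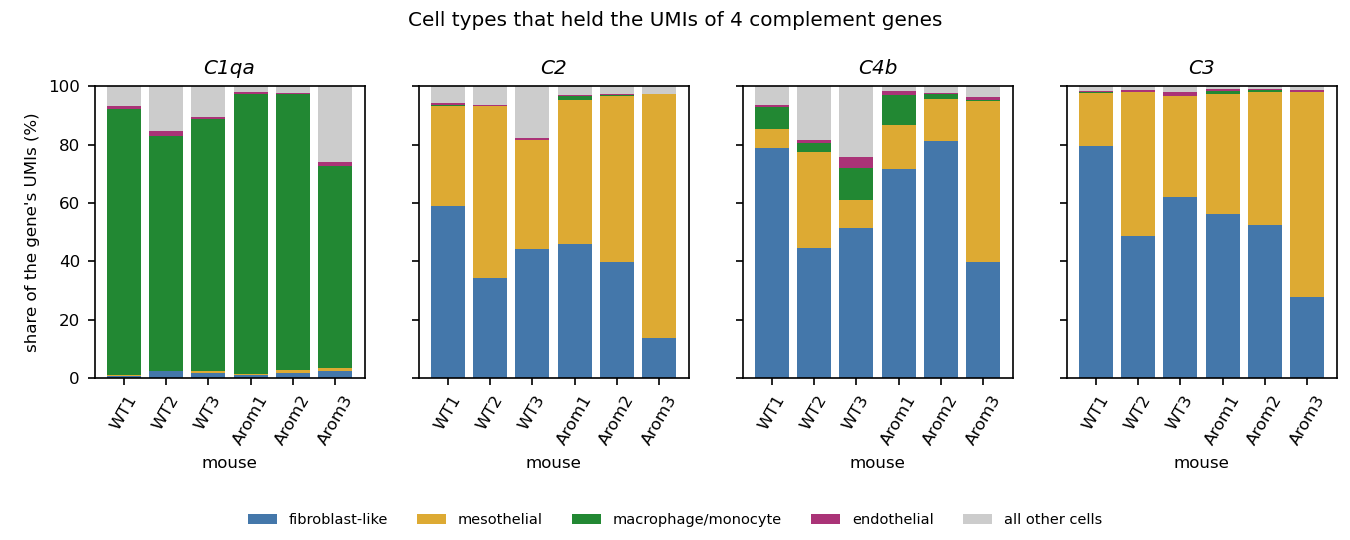
Each bar is 1 mouse and gives the share (%) of the UMIs of C1qa, C2, C4b or C3 that lay in fibroblast-like, mesothelial, macrophage/monocyte, endothelial and all other cells. Macrophages fill most of the C1qa bars, 69.4% in Arom3 and 80.5% or more in the other mice, and mesothelial cells fill 70.4% of the C3 bar of Arom3.

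The genotypes were compared on UMIs summed per mouse and group of cells, with edgeR (quasi-likelihood test, p adjusted by Benjamini-Hochberg over all genes tested), and a gene passed at an adjusted p under 0.05. The labels name the mice as separate samples, so n is 3 mice per genotype. In fibroblast-like cells, the stromal cells that make most of the matrix, 0 of the 9 members passed, where 15.5% of 14160 genes did. At an unadjusted p under 0.05 there were 5 members, where 34.6% of genes were, and DESeq2 called 3, where it called 22.3% of genes. The median log2 fold change of the members was 1.81 (Aromhum over WT), beside -0.0043 over all genes tested. The C1q chains, which were near 0 CPM in these cells, lay above this median. Without Arom3, 7 of 9 members passed (all but C1ra and C2), where 30.7% of genes did.

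C4b in fibroblast-like cells read 182, 33.4 and 52.6 CPM in WT1, WT2 and WT3 and 693, 862 and 132 CPM in Arom1, Arom2 and Arom3. Arom1 and Arom2 were far above the other mice, and Arom3 lay below WT1, so the groups overlapped. These cells pool subtypes whose shares differed between mice. Of all cells, Mmp3-hi fibroblasts were 5.26, 0.104 and 0.5197% in WT1, WT2 and WT3 and 8.01, 13.6 and 0.628% in Arom1, Arom2 and Arom3, Esr1-hi fibroblasts 2.89 to 5.33% in WT and 9.105 to 14.6% in Aromhum, and the Prg4 Angptl1 group 6.05 to 7.74% and 1.77 to 5.38%. Arom1 and Arom2, the mice with the most C4b, also had the most Mmp3-hi fibroblasts. They were also the highest mice for C4b within the Mmp3-hi, Dmkn-hi, Esr1-hi and Tppp3 Myoc fibroblasts, given below. The part of the subtype mix in the C4b values of fibroblast-like cells was not tested. The C4b log2 fold change of 2.64 ± 0.88 SE did not pass (edgeR adjusted p = 0.082). It passed without Arom3 (adjusted p = 0.016), by DESeq2 (0.033) and with each subtype weighted equally in limma (log2 fold change 2.33, adjusted p = 0.032). With any other single mouse left out, 0 members passed in these cells, beside 0.0141 to 3.42% of all genes. None passed within the full limits on cells, with the mitochondrial limit alone, without doublets or at resolutions 0.4 and 1.2. The same held with the column blocks, RLE size factors and no filter on low counts. C3 read 1044, 546 and 497 CPM in WT1, WT2 and WT3 and 1831, 1702 and 671 CPM in Arom1, Arom2 and Arom3, with Arom3 again inside the WT range (log2 fold change of 1.01 ± 0.47 SE; edgeR adjusted p = 0.17, and 0.024 without Arom3). Cfb had the same order of mice as C3, at 14.5, 8.32 and 7.34 CPM in WT1, WT2 and WT3 and 53.8, 41.8 and 10.03 CPM in Arom1, Arom2 and Arom3 (log2 fold change of 1.81 ± 0.61 SE; edgeR adjusted p = 0.086, and 0.0034 without Arom3).

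The remaining components did not pass in fibroblast-like cells with all 6 mice. C1ra read 112, 103 and 109 CPM in WT1, WT2 and WT3 and 134, 118 and 104 CPM in Arom1, Arom2 and Arom3 (log2 fold change of 0.14 ± 0.14 SE), C1s1 had a log2 fold change of 0.25 ± 0.20 SE and C2 of -0.13 ± 0.32 SE, with edgeR adjusted p of 0.51, 0.41 and 0.79. C1s1 passed without Arom3 (adjusted p = 0.035). The C1q chains were near 0 in these cells, at 0.202 to 5.18 CPM over the mice and the chains, with Arom1 and Arom2 highest. Their log2 fold changes were 1.91 to 2.05, with edgeR adjusted p of 0.097 to 0.10, and all 3 passed without Arom3 (adjusted p = 0.0039, 0.0055 and 0.018 for C1qa, C1qb and C1qc). The 10 macrophage markers summed to 16.1 to 18.1 CPM in WT and 22.6 to 49.2 CPM in Aromhum fibroblast-like cells, and their part in the C1q values was not tested.

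**Figure D3:**
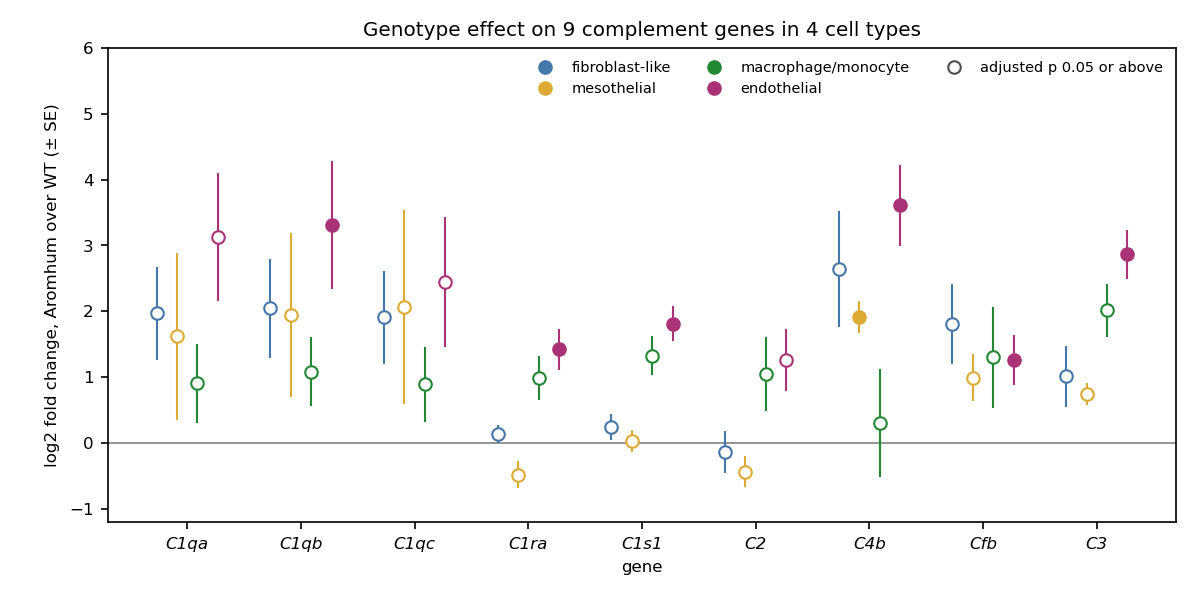
Points are log2 fold changes (Aromhum over WT, 3 mice each) of the 9 genes in fibroblast-like, mesothelial, macrophage/monocyte and endothelial cells, bars are ± 1 SE, and filled points passed at an adjusted p under 0.05 in edgeR. C4b is filled in mesothelial and endothelial cells, and 6 genes are filled in endothelial cells.

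Within the fibroblast subtypes, C4b was the only member that passed in edgeR. In Esr1-hi fibroblasts, rich in the estrogen receptor gene, 1 of 7 members tested passed, where 16.2% of genes did, and C4b read 13.3, 7.97 and 14.2 CPM in WT1, WT2 and WT3 and 162, 179 and 21.01 CPM in Arom1, Arom2 and Arom3. Every Aromhum mouse was above every WT mouse, with Arom3 closest to them. C4b rose by a log2 fold change of 3.38 ± 0.76 SE (edgeR adjusted p = 0.025). The call was lost without WT1, WT2, WT3, Arom1 or Arom2 (adjusted p = 0.078, 0.096, 0.089, 0.086 and 0.069) and within the full limits on cells (log2 fold change 1.73, adjusted p = 0.075). In these cells the macrophage markers summed to 17.1 to 24.2 CPM in WT and 33.6 to 42.3 CPM in Aromhum, with 2 of 5 tested called higher, and the endothelial markers to 41.6 to 63.4 CPM in WT and 18.2 to 35.1 CPM in Aromhum, with 3 of 7 called lower. The mesothelial markers summed to 64.4 to 80.8 CPM in WT and 48.1 to 58.8 CPM in Aromhum, with 1 of 2 called lower. The fibroblast markers summed to 47782.4 to 59156.6 CPM in WT and 38400.5 to 41824.5 CPM in Aromhum, with 2 of 7 called higher and 1 lower. None of these ranges overlapped, and their part in the C4b values was not tested.

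In the Tppp3 Myoc group, C4b was the 1 of 6 members that passed, where 3.75% of genes did. It read 145, 43.7 and 59.3 CPM in WT1, WT2 and WT3 and 497, 359.6 and 185 CPM in Arom1, Arom2 and Arom3, with no overlap between the genotypes, and rose by a log2 fold change of 2.07 ± 0.48 SE (edgeR adjusted p = 0.046). Without WT2, WT3, Arom1 or Arom2 the adjusted p was 0.14, 0.15, 0.14 and 0.12, and with DESeq2 it was 0.059. Within the full limits on cells it was 0.067, and at resolutions 0.4 and 1.2 0.052 and 0.057. The endothelial markers summed to 35.5 to 63.3 CPM in WT and 15.5 to 32.3 CPM in Aromhum here, with 1 of 6 called lower. The mesothelial markers summed to 51.1 to 65.1 CPM in WT and 60.4 to 83.1 CPM in Aromhum, with 1 of 2 tested called higher. The fibroblast markers summed to 42720.5 to 43680.2 CPM in WT and 43710.2 to 49234.9 CPM in Aromhum, with 4 of 7 called higher. The part of these lists was not tested.

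In the other 4 subtypes, 0 members passed in edgeR, where 3.68% of genes did in Mmp3-hi, 0.520% in Dmkn-hi, 0.655% in tenocyte and 0.340% in Prg4 Angptl1 fibroblasts. The members tested numbered 6, 8, 5 and 6, of which 3, 2, 2 and 4 had an unadjusted p under 0.05, where 20.1, 18.3, 17.1 and 12.1% of genes did. DESeq2 called 1, 1, 0 and 1 members and 2.09, 4.15, 2.13 and 1.22% of genes. Mmp3-hi fibroblasts, named for a matrix protease of inflamed stroma, read 546, 402 and 327 CPM in WT1, WT2 and WT3 and 1567, 1648 and 435 CPM in Arom1, Arom2 and Arom3 for C4b. Arom3 lay inside the WT range there, and the value of WT2 rests on 10 cells. Without Arom3, 7 members passed in Mmp3-hi, 5 in Esr1-hi, 4 in Dmkn-hi, 2 in tenocyte, 0 in Prg4 Angptl1 and 7 in Tppp3 Myoc fibroblasts, where 14.8, 25.5, 11.4, 5.58, 0.399 and 8.74% of genes did. Each count of 7 holds at least 1 C1q chain. The chains reached at most 5.03 CPM in Mmp3-hi and 4.64 CPM in Tppp3 Myoc fibroblasts over the mice. There they passed the filter on low counts only through the Aromhum mice, and so had to differ to be tested. C4b in Dmkn-hi fibroblasts read 237, 35.6 and 72.6 CPM in WT1, WT2 and WT3 and 1485, 1721 and 265 CPM in Arom1, Arom2 and Arom3, with all 3 Aromhum mice above the WT mice (log2 fold change of 3.30 ± 0.84 SE; edgeR adjusted p = 0.098).

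**Figure D4:**
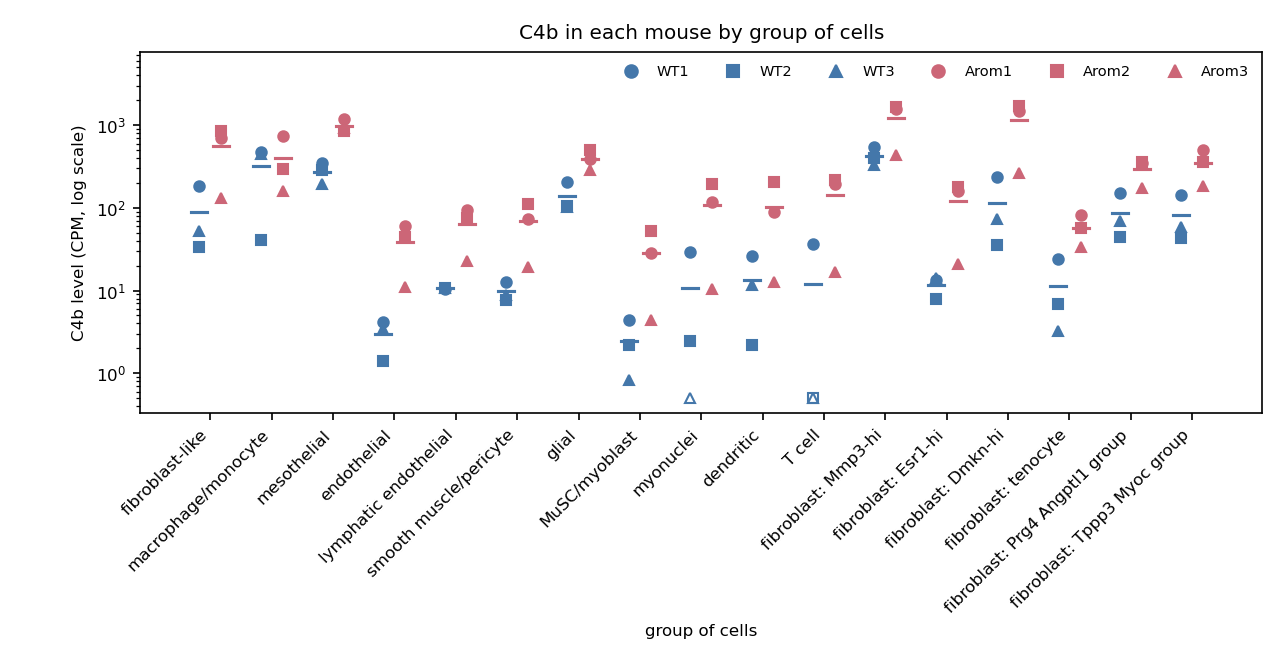
Each point is C4b in 1 mouse (CPM, log scale), by cell type and fibroblast subtype, with WT in blue and Aromhum in red, and lines mark the means of 3 mice. Open points lie at 0 and are drawn at the bottom. Arom3, the red triangle, is the lowest Aromhum mouse in each group except mesothelial cells, where Arom2 is lowest at 847 CPM.

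In mesothelial cells 1 of the 9 members passed, C4b, where 0.282% of 11703 genes did. C4b read 346, 285 and 195 CPM in WT1, WT2 and WT3 and 1192, 847 and 926 CPM in Arom1, Arom2 and Arom3. All 3 Aromhum mice were above all 3 WT mice, and Arom3 did not stand apart from Arom1 and Arom2 here. C4b rose by a log2 fold change of 1.92 ± 0.24 SE (edgeR adjusted p = 0.036). The call was lost without WT1, WT2, WT3, Arom1 or Arom2 (adjusted p = 0.078, 0.10, 0.16, 0.11 and 0.12), kept without Arom3 (0.0031), and lost within the full limits on cells (log2 fold change 1.54, adjusted p = 0.15). In each of these fits that lost the call, 0% of all genes passed, and without Arom3 13.1% did. The fibroblast markers in mesothelial cells summed to 17280.0 to 18546 CPM in WT and 20501 to 21379.7 CPM in Aromhum and the endothelial markers to 356 to 656 CPM in WT and 157 to 288 CPM in Aromhum, neither with overlap, and their part in the C4b values was not tested.

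A C4b UMI was found in 72.8% ± 10.3 of WT and 96.9% ± 1.74 of Aromhum mesothelial cells (SD, n = 3 each), at a median of 9198 and 11253.5 UMIs per cell, and in 22.7% and 57.1% of cells thinned to 1000 UMIs. In muscle stem cells and myoblasts the shares were 1.09% ± 0.688 and 8.53% ± 5.41 at a median of 4396 and 3925 UMIs. C3 was found in 100% ± 0 and 99.8% ± 0.157 of mesothelial cells. It had a UMI in 2.84% ± 0.5295 of WT and 12.3% ± 2.59 of Aromhum muscle stem cells and myoblasts at the depths just given.

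C3 in mesothelial cells read 5566, 6369 and 5559 CPM in WT1, WT2 and WT3 and 10949.9, 8108 and 8629 CPM in Arom1, Arom2 and Arom3. The groups did not overlap, and the log2 fold change of 0.74 ± 0.17 SE did not pass (edgeR adjusted p = 0.079; 0.024 without Arom3 and 0.0015 by DESeq2). C2 went the other way in its values, at 828, 871 and 1011 CPM in WT1, WT2 and WT3 and 559, 444 and 890.1 CPM in Arom1, Arom2 and Arom3, with Arom3 inside the WT range (log2 fold change of -0.44 ± 0.24 SE; edgeR adjusted p = 0.34, and 0.022 without Arom3). C1ra read 225, 196 and 239.6 CPM in WT1, WT2 and WT3 and 149, 106 and 191 CPM in Arom1, Arom2 and Arom3, with every Aromhum mouse below every WT mouse (log2 fold change of -0.48 ± 0.20 SE; edgeR adjusted p = 0.23, and 0.039 without Arom3). Cfb had a log2 fold change of 0.99 (edgeR adjusted p = 0.17, and 0.016 without Arom3) and C1s1 of 0.03. The C1q chains ranged from 0 to 31.4 CPM in mesothelial cells, with Arom1 highest. Over the 9 members the median log2 fold change was 0.99, beside -0.0022 over all genes tested. The C1q chains, low in these cells, lay at or above this median. An unadjusted p under 0.05 was reached by 4 members and 20.5% of genes, DESeq2 called 2 members and 5.51% of genes, and without Arom3 5 of 8 members tested passed, where 13.1% of genes did.

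In macrophages 0 of 9 members passed in edgeR, where 0.396% of 7821 genes did. An unadjusted p under 0.05 was reached by 3 members (C1ra, C1s1 and C3) and 9.23% of genes, and DESeq2 called 1 member, C3, and 1.87% of genes. C1qa read 2476, 426 and 1506 CPM in WT1, WT2 and WT3 and 4207, 2703 and 1519 CPM in Arom1, Arom2 and Arom3. WT2 was low and Arom1 high, and the ranges overlapped (log2 fold change of 0.91 ± 0.60 SE; edgeR adjusted p = 0.75). C1qb and C1qc had the same order of mice as C1qa, with log2 fold changes of 1.08 ± 0.52 and 0.89 ± 0.56 SE. The macrophage values rest on 67 to 1534 cells per mouse, with 67 in WT3 and 84 in Arom3.

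C3 in macrophages read 107, 40.7 and 40.04 CPM in WT1, WT2 and WT3 and 303, 281 and 203 CPM in Arom1, Arom2 and Arom3, with no overlap (log2 fold change of 2.02 ± 0.40 SE; edgeR adjusted p = 0.087). With the replicate number as a block, which may not mark pairs, C3 was the 1 member that passed (adjusted p = 0.012), where 1.202% of genes did. It also passed without WT1 (adjusted p = 0.045), with no filter on low counts (0.0088) and by DESeq2 (2.5e-04). With marked doublets left out the log2 fold change of C3 was 0.77 (edgeR adjusted p = 0.57), and that of C1s1 was 0.07 in place of 1.33. In the other 11 alternatives C3 did not pass, with log2 fold changes of 1.58 to 2.27. The 7 fibroblast markers summed to 736 to 4269 CPM in WT and 6905 to 8570 CPM in Aromhum macrophages, with none at 0, and the 8 mesothelial markers to 0 to 5.27 CPM in WT and 12.1 to 24.95 CPM in Aromhum, with no overlap. C3 in macrophages was 9.90% to 17.1% of its level over all cells in WT and 13.1% to 14.9% in Aromhum. The part of fibroblast and mesothelial RNA in the C3 values was not tested. C4b in macrophages read 474, 40.7 and 449 CPM in WT1, WT2 and WT3 and 743, 299 and 161 CPM in Arom1, Arom2 and Arom3, with Arom3 below WT1 and WT3, and its log2 fold change of 0.31 ± 0.82 SE turned to -0.23 without WT2 and -0.54 without Arom1.

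Endothelial cells, which line blood vessels, had low levels of all 9 members, and 6 of them passed (C1qb, C1ra, C1s1, C4b, Cfb and C3), each higher in Aromhum, where 19.7% of 12482 genes passed. C1qb passed the filter on low counts mainly through the Aromhum mice. C3 read 15.1, 7.54 and 9.57 CPM in WT1, WT2 and WT3 and 118, 83.5 and 43.3 CPM in Arom1, Arom2 and Arom3. Every Aromhum mouse was above every WT mouse, and C3 rose by a log2 fold change of 2.86 ± 0.37 SE (edgeR adjusted p = 0.0031). C4b read 4.17, 1.41 and 3.46 CPM in WT1, WT2 and WT3 and 61.1, 44.97 and 10.9 CPM in Arom1, Arom2 and Arom3, again without overlap, and rose by a log2 fold change of 3.61 ± 0.62 SE (adjusted p = 0.0069, edgeR). C1s1 read 7.12, 5.64 and 5.26 CPM in WT1, WT2 and WT3 and 28.7, 24.1 and 13.4 CPM in Arom1, Arom2 and Arom3 and rose by a log2 fold change of 1.81 ± 0.27 SE (edgeR adjusted p = 0.0045). These 3 calls held with each mouse left out in turn, and those of C3 and C1s1 were lost with the column blocks as clusters (adjusted p = 0.083 and 0.065).

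The other 3 endothelial calls were less stable. C1ra read 3.85, 2.02 and 3.96 CPM in WT1, WT2 and WT3 and 12.2, 7.31 and 7.96 CPM in Arom1, Arom2 and Arom3, without overlap (log2 fold change of 1.42 ± 0.31 SE; edgeR adjusted p = 0.016), and was lost without Arom1 (0.067), with the column blocks (0.077) and within the full limits on cells (log2 fold change 0.51, adjusted p = 0.52). Cfb read 2.13, 1.29 and 2.204 CPM in WT1, WT2 and WT3 and 7.32, 3.03 and 3.66 CPM in Arom1, Arom2 and Arom3, from 21 to 80 UMIs per mouse (log2 fold change of 1.26 ± 0.38 SE; edgeR adjusted p = 0.047), and was lost without each mouse except Arom3 (adjusted p = 0.083, 0.14, 0.083, 0.19 and 0.054 without WT1, WT2, WT3, Arom1 and Arom2), with the mitochondrial limit alone (0.051) and at resolution 1.2 (0.067). C1qb read 1.39, 0.4902 and 0.1503 CPM in WT1, WT2 and WT3 and 14.5, 3.86 and 1.004 CPM in Arom1, Arom2 and Arom3, with Arom3 below WT1 (log2 fold change of 3.31 ± 0.98 SE; edgeR adjusted p = 0.045), and was lost without WT2, WT3, Arom1 or Arom2 (adjusted p = 0.14, 0.13, 0.23 and 0.082) and by DESeq2 (0.0502). In WT2 and WT3 C1qb lay below the level that the filter on low counts asks for. With the replicate block, which may not mark pairs, 8 of 9 members passed, where 26.6% of genes did, and without Arom3 all 9 passed, where 22.3% of genes did.

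Markers of endothelial cells and of other cell types moved with the endothelial results. The 7 endothelial markers summed to 7517 to 7998 CPM in WT and 5536 to 6381 CPM in Aromhum endothelial cells, without overlap, and 3 of 7 passed as lower. The 7 fibroblast markers summed to 410 to 564 CPM in WT and 1773 to 4499 CPM in Aromhum endothelial cells, with none at 0, and 7 of 7 passed as higher in Aromhum. Of the mesothelial markers 3 of 4 tested passed as higher (summed level 3.25 to 7.21 CPM in WT and 11.2 to 22.8 CPM in Aromhum), and of the macrophage markers 2 of 4 tested (summed level 26.3 to 47.6 CPM in WT and 45.04 to 193 CPM in Aromhum). C3 in endothelial cells was 1.83% to 4.10% of its level over all cells of the same mouse in WT and 3.19% to 5.77% in Aromhum. The part of these cells' RNA in the endothelial results was not tested.

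The genotype effects in fibroblast-like and other cells were compared as an interaction within edgeR. In endothelial cells the effect was larger for 4 members, where 16.0% of 14160 genes passed. The difference in log2 fold change was 1.32 ± 0.24 SE for C1ra (edgeR adjusted p = 0.0095), 1.56 ± 0.14 for C1s1 (0.0013), 1.49 ± 0.28 for C2 (0.011) and 1.86 ± 0.19 for C3 (0.0015). For C4b it was 0.81 ± 0.38 and did not pass (edgeR adjusted p = 0.18). C2 stood at only 0.551 to 3.31 CPM in endothelial cells over the mice, and passed in neither cell type alone with all 6 mice. Within the full limits on cells, 0 of the 4 passed (0.92, 0.093, 0.93 and 0.16 for C1ra, C1s1, C2 and C3). In mesothelial cells 0 members passed, where 1.69% of 14019 genes did, and without Arom3 3 passed (C1ra, C2 and Cfb), where 11.7% of genes did. In macrophages 0 members passed, where 1.11% of 13716 genes did. The macrophage difference was 1.21 ± 0.28 SE for C3 (edgeR adjusted p = 0.062) and -2.02 ± 0.60 for C4b (0.14), and 4 and 6 of 12 alternatives passed for C4b and C3. With marked doublets left out the C3 difference was -0.01, within the full limits on cells 0.21, and in the other alternatives 0.97 to 1.49.

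In T cells C3 passed the filter on low counts only through the Aromhum mice, so they are left out of the range that follows. In the other 16 groups the log2 fold change of C3 was 0.57 in Dmkn-hi fibroblasts to 2.86 in endothelial cells, and it passed in 4 of them. C4b passed the filter in 15 groups, with log2 fold changes of 0.31 in macrophages to 3.61 in endothelial cells, and passed the test in 6 of them, and the groups share their libraries.

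**Figure D5:**
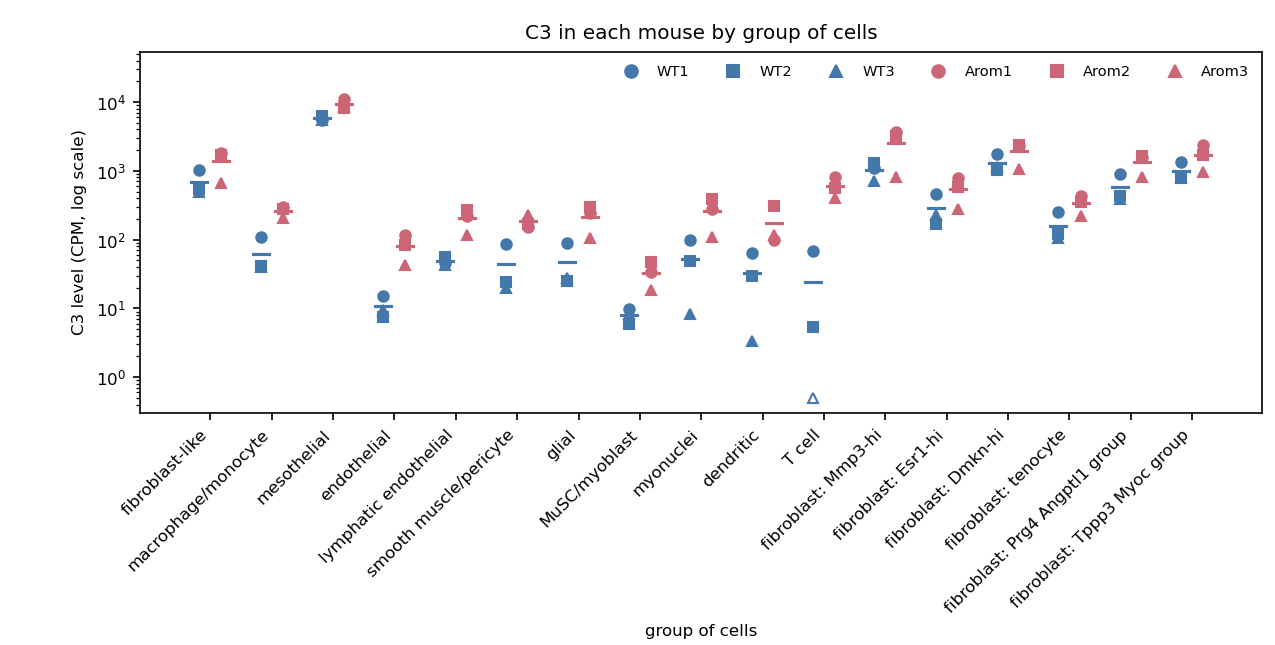
Each point is C3 in 1 mouse (CPM, log scale), by cell type and fibroblast subtype, with WT in blue and Aromhum in red, and lines mark the means of 3 mice. The mesothelial points, 5559 to 10949.9 CPM, lie above those of every other group, and the open point at the bottom is T cells of WT3, at 0.

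Among the other cell types, C3 passed in lymphatic endothelial cells (1 of 5 members tested, where 0.0394% of genes did), muscle stem cells and myoblasts (1 of 3, 2.69%) and smooth muscle and pericytes, where C4b passed too (2 of 5, 2.35%). C3 in lymphatic endothelial cells read 44.98, 56.7 and 43.3 CPM in WT1, WT2 and WT3 and 221, 270.2 and 118 CPM in Arom1, Arom2 and Arom3, with no overlap (log2 fold change of 2.03 ± 0.26 SE; edgeR adjusted p = 0.022). It was lost without WT2, WT3, Arom1 or Arom2 (adjusted p = 0.18, 0.13, 0.062 and 0.053), without doublets (0.058) and with the column blocks (0.52). The fibroblast markers summed to 713 to 5098 CPM in WT and 1906 to 3123 CPM in Aromhum in these cells, ranges that overlapped, and their part was not tested.

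Smooth muscle and pericytes read 12.7, 7.79 and 8.89 CPM in WT1, WT2 and WT3 and 73.8, 112 and 19.4 CPM in Arom1, Arom2 and Arom3 for C4b. The genotypes did not overlap, with Arom3 nearest to WT (log2 fold change of 2.76 ± 0.53 SE; edgeR adjusted p = 0.029), and the call was lost without each mouse except Arom3 (adjusted p from 0.079 without WT1 to 0.15 without Arom1, with 0.13, 0.085 and 0.11 without WT2, WT3 and Arom2) and with the mitochondrial limit alone (0.17). C3 there read 87.7, 23.9 and 19.9 CPM in WT1, WT2 and WT3 and 152, 169 and 232 CPM in Arom1, Arom2 and Arom3, with Arom3 highest (log2 fold change of 2.07 ± 0.44 SE; edgeR adjusted p = 0.041), and was lost without WT2, WT3, Arom1 or Arom2 (adjusted p = 0.15, 0.093, 0.15 and 0.12), by DESeq2 (0.076), without doublets (0.15), with the mitochondrial limit alone (0.058), at resolution 0.4 (0.10) and with the column blocks (0.063). The fibroblast markers summed to 2134 to 4500.0 CPM in WT and 4568 to 5263 CPM in Aromhum in these cells, and 2 of 7 passed as higher. Of the endothelial markers 1 of 7 passed as higher and 1 as lower, and the part of either list was not tested.

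In muscle stem cells and myoblasts C3 read 9.93, 6.001 and 8.199 CPM in WT1, WT2 and WT3 and 34.1, 46.7 and 18.8 CPM in Arom1, Arom2 and Arom3. Every Aromhum mouse was higher, from 20 to 105 UMIs per mouse (log2 fold change of 2.03 ± 0.32 SE; edgeR adjusted p = 0.031), and the call was lost without WT2, WT3, Arom1 or Arom2 (adjusted p = 0.14, 0.11, 0.17 and 0.11) and with the column blocks (0.24). C3 was 1.42% to 3.51% of its level over all cells in WT and 1.38% to 2.18% in Aromhum there, and 6 of 6 fibroblast markers tested passed as higher in Aromhum (478 to 737 against 1231 to 4104 CPM summed). The 1 mesothelial marker tested passed as higher too, and the 8 markers summed to 1.64 to 4.09 CPM in WT and 11.6 to 19.9 CPM in Aromhum. The macrophage markers summed to 12.7 to 17.4 CPM in WT and 18.8 to 39.7 CPM in Aromhum, and the endothelial markers to 851 to 1184 CPM in WT and 156 to 589 CPM in Aromhum, with 2 of 7 called lower. C3 was the 1 member tested in T cells, where 1.12% of genes passed, and had to differ to be tested. It rested on 13, 1 and 0 UMIs in WT and 323, 304 and 49 in Aromhum (log2 fold change of 4.26 ± 0.64 SE; edgeR adjusted p = 0.029), with fibroblast markers at 217 to 5994 and 4896 to 16913 CPM summed and mesothelial markers at 0 to 15.6 CPM in WT and 16.7 to 156 CPM in Aromhum. Without WT1 the log2 fold change was 6.99. It was lost without WT2, WT3, Arom1 or Arom2 (adjusted p = 0.23, 0.069, 0.13 and 0.15) and with the column blocks (0.50). The part of the RNA of other cells in either result was not tested.

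Glial cells, which ensheathe nerve fibres, had 1 of 6 members pass, C4b, where 0.453% of genes did. C4b read 204, 106 and 104 CPM in WT1, WT2 and WT3 and 389, 501 and 287 CPM in Arom1, Arom2 and Arom3, with no overlap (log2 fold change of 1.49 ± 0.26 SE; edgeR adjusted p = 0.036). It was lost without WT2, WT3, Arom1 or Arom2 (adjusted p = 0.17, 0.14, 0.14 and 0.20), within the full limits (0.092) and with the mitochondrial limit alone (0.16). The fibroblast markers summed to 9080.3 to 10922 CPM in WT and 11154 to 14272 CPM in Aromhum, and 1 of 7 passed as higher. The macrophage markers summed to 2203 to 4828 CPM in WT and 1374 to 2073 CPM in Aromhum and the endothelial markers to 442 to 739.9 CPM in WT and 177 to 388 CPM in Aromhum, both lower without overlap. The part of these lists was not tested. The glial C4b level was 166% to 387% of the level over all cells in WT and 64.2% to 154% in Aromhum. In myonuclei 0 of 5 members passed, where 0.258% of genes did, 4 had an unadjusted p under 0.05 (and 8.74% of genes) and DESeq2 called 0 (and 0.897% of genes). In dendritic cells 0 of 6 passed in edgeR, where 0% of genes did (with 409 of 8014, 5.10%, at an unadjusted p under 0.05 and 12, 0.150%, by DESeq2), 4 members had an unadjusted p under 0.05 and DESeq2 called 0.

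Of 49 other genes of the pathway listed, 33 had a row in the table: 11 of 21 components, 13 of 18 regulators and 9 of 10 receptors or binding proteins. In fibroblast-like cells 25 were tested, 2 passed as higher and 3 as lower in Aromhum, beside 15.5% of all genes, and their median log2 fold change was 0.020. Masp1, a protease of the lectin pathway, read 14.2, 6.58 and 11.6 CPM in WT1, WT2 and WT3 and 55.9, 53.6 and 25.3 CPM in Arom1, Arom2 and Arom3 and rose by a log2 fold change of 2.06 ± 0.41 SE (edgeR adjusted p = 0.025). Cd59b, which blocks the membrane attack complex, rose by a log2 fold change of 0.86 ± 0.20 SE at 1.41 to 3.36 CPM (edgeR adjusted p = 0.034). C7, a part of the membrane attack complex, read 217, 87.4 and 146 CPM in WT1, WT2 and WT3 and 42.3, 43.6 and 78.9 CPM in Arom1, Arom2 and Arom3 and fell, with a log2 fold change of -1.48 ± 0.38 SE (edgeR adjusted p = 0.044). Clu, clusterin, which binds that complex in fluid, fell from 149 to 80.3 CPM on average (log2 fold change of -0.89 ± 0.10 SE; edgeR adjusted p = 0.012), and Cd93, a gene of endothelial cells among others, fell too (log2 fold change of -1.38 ± 0.14 SE). The 7 endothelial markers summed to 223 to 329.7 CPM in WT and 79.7 to 114 CPM in Aromhum in these cells, and 7 of 7 passed as lower. Of the mesothelial markers 2 of 6 tested and of the macrophage markers 1 of 7 passed as higher, and the part of these lists in the pathway values was not tested. With each subtype weighted equally in limma, Masp1 and C7 still passed, and the log2 fold changes of Clu, Cd93 and Cd59b were -0.44, -0.39 and 0.37 (adjusted p = 0.12, 0.24 and 0.17). The regulator Cd55, not among the edgeR calls in these cells, passed in that limma fit (log2 fold change 0.71, adjusted p = 0.033). Without WT2, WT3 or Arom1 0 of the pathway genes passed in fibroblast-like cells, beside 0.0546, 0.04098 and 0.0141% of all genes, and without Arom2 1, beside 0.437%. Without WT1 3 passed, beside 3.42%, without Arom3 12 of 27 tested, beside 30.7%, and within the full limits on cells 0, beside 0.00911%.

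Cd55, which speeds the decay of C3 convertases on the cell surface, was the 1 of 19 pathway genes tested that passed in macrophages (beside 0.396% of all genes), at 14.8, 12.1 and 6.67 CPM in WT1, WT2 and WT3 and 42.2, 78.1 and 70.2 CPM in Arom1, Arom2 and Arom3 (log2 fold change of 2.35 ± 0.33 SE; edgeR adjusted p = 0.023). Without any of WT1, WT2, WT3 or Arom2 0 passed there, beside 0.121, 0.0623, 0.0241 and 0.0124% of all genes. Within the full limits, without doublets and at resolutions 0.4 and 1.2, 0 pathway genes passed and 0% of all genes, and 0 passed with the mitochondrial limit alone or the column blocks, beside 0.339 and 0.111%. The fibroblast and mesothelial markers given for C3 in macrophages were higher in Aromhum here too, and their part in the Cd55 values was not tested. Of 20 tested in mesothelial cells, 0 passed in edgeR, 10 had an unadjusted p under 0.05 (beside 20.5% of all genes) and DESeq2 called 6 (beside 5.51%). Without Arom3 edgeR called 6 of 17 (beside 13.1%). In endothelial cells 7 of 18 passed, beside 19.7% of all genes, each higher in Aromhum: C1s2, C1rb, C1rl, Masp1, Serping1, Cd55 and C1qbp. Serping1, the C1 inhibitor that blocks C1r and C1s, read 26.03, 22.2 and 17.8 CPM in WT1, WT2 and WT3 and 199, 155 and 60.3 CPM in Arom1, Arom2 and Arom3 and rose by a log2 fold change of 2.58 ± 0.37 SE (edgeR adjusted p = 0.0042). C1rb and C1s2, the near copies of C1ra and C1s1, rose by log2 fold changes of 1.37 and 1.34. Cd55 there read 23.3, 21.3 and 24 CPM in WT1, WT2 and WT3 and 77.2, 51.9 and 52.4 CPM in Arom1, Arom2 and Arom3, with no overlap. The fibroblast markers given for the members in endothelial cells were higher in Aromhum here too, and their part in these pathway values was not tested. Without Arom1 3 of the endothelial pathway genes passed, beside 7.303% of all genes. Without WT2 or WT3 4 passed, beside 10.7 and 10.6%, and within the full limits 4 of 12 tested, beside 8.36%.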

How the data were processed

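RNA of single cells from 6 mice was measured with 10x Genomics 3' libraries. The authors deposited 1 table of raw UMI counts per gene and barcode, made with Cell Ranger 3.0.2 on mm10 plus CYP19A1, and all its columns were mapped to samples by name, with 0 left over. Of 63647 barcodes, 59227 with at least 200 genes and 1000 UMIs were kept. The study's limits of 2500 genes and 5% mitochondrial UMIs, in full, left 18852 and were run as an alternative. Cells were clustered without the complement genes (scanpy 1.11.5, leidenalg 0.10.2, 30 principal components, resolution 0.8) into 32 clusters and 22 fibroblast subclusters, named by marker genes. Doublets were marked with Scrublet (1.51% to 3.14% per mouse) and left out as an alternative.

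UMIs were summed per mouse and group of cells, for mice with at least 10 cells in it, and tested with edgeR 4.0.16 (TMM, filterByExpr, quasi-likelihood test, R 4.3.3) with Benjamini-Hochberg adjustment over all genes tested. Differences between cell types were tested as an interaction with the mouse as a term. DESeq2 1.42.0, limma 3.58.1, RLE size factors, no filter, other resolutions, a replicate block and leaving out each mouse were alternatives. The column blocks of the table, used as clusters, were an alternative chosen after seeing the data. Only the edgeR test was tried on simulated counts, for fibroblast-like, mesothelial, endothelial and macrophage cells. Clustering, naming of cells, the interaction and the alternatives were not simulated. The p-values measure the spread between mice.

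On each date 1 WT and 1 Aromhum littermate were processed, and whether the replicate numbers follow the dates is not given in the sources used here. The deviations of same-numbered mice from the group means correlated at 0.148, 0.140 and 0.278 in endothelial cells and 0.314, 0.205 and 0.142 in macrophages. They correlated at 0.193, -0.111 and 0.163 in fibroblast-like and 0.216, -0.127 and 0.052 in mesothelial cells. The same mice gave all 4 cell types, so these values do not settle whether the replicate numbers mark pairs. The members and gene lists were chosen with earlier results of these data known. Named genes were all 9 members, pathway genes that passed in 4 cell types (at most 8 each) and the 3 genes most like C3, C4b and C1qa. Depth per mouse is given in the text above, and low counts limit the precision in small groups of cells.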

Additional observations from a re-analysis of the deposited data

Results flagged for a closer look

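The genotype effect differed between endothelial and fibroblast-like cells for 4 of the 9 genes by the interaction test in edgeR, which is why they are listed here. Of all 14160 genes tested, 16.0% passed the same test. The log2 fold change, Aromhum over WT, was larger in endothelial cells by 1.32 for C1ra, 1.56 for C1s1, 1.49 for C2 and 1.86 for C3. It stayed past an adjusted p of 0.05 in 11, 11, 10 and 11 of 12 alternatives, in that order, with the exceptions being the full limits on genes and mitochondrial UMIs for each of the 4 and limma voom for C2 (adjusted p = 0.28). The C2 difference rests on low endothelial levels, 0.551 to 3.31 CPM over the mice. The fibroblast markers were also higher in Aromhum endothelial cells, and their part in these differences was not tested.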

How the results depend on the processing

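In fibroblast-like cells 0 members passed. The count was 3 by DESeq2, 1 with the replicate block and 1 with each subtype weighted equally (beside 22.3, 13.6 and 4.72% of all genes), and 0 to 7 with 1 mouse left out (beside 0.0141 to 30.7%). Over the 6 fibroblast subtypes 2 calls were made, beside 4.61% of all genes pooled over them. There were 5 by DESeq2, 12 with no filter on low counts, 14 with the replicate block and 0 within the full limits on cells (beside 6.25, 4.302, 7.51 and 0.377%), and 0 to 25 with 1 mouse left out (beside 0.902 to 11.4%). Among the 25, without Arom3, were C1q chains that passed the filter only through the Aromhum mice. Over the other cell types 13 calls were made, beside 3.599% of all genes. Among these calls were C3 in T cells, which passed the filter only through the Aromhum mice, and C1qb in endothelial cells, which passed it mainly through them. There were 3 within the full limits, 6 with the mitochondrial limit alone, 27 with no filter and 22 with the replicate block (beside 2.35, 4.16, 3.17 and 6.37%), and 3 to 36 with 1 mouse left out (beside 1.14 to 8.21%). The 4 interaction calls, beside 6.35%, became 0 within the full limits and 7 with no filter (beside 0.718 and 6.03%), and 4 to 7 with 1 mouse left out (beside 2.94 to 11.7%). The 13 calls of pathway genes in 4 cell types, beside 10.2%, became 4 within the full limits and 20 by DESeq2 (beside 2.91 and 13.8%), and 4 to 25 with 1 mouse left out (beside 2.11 to 18.9%). Of the fits with 1 mouse left out, the one without Arom3 gave the highest count each time. The causes were not tested.

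Within the full limits, C4b in Mmp3-hi fibroblasts stood at 1547 CPM (4 mice), and mesothelial cells held 20.7% of C3 and 29.3% of C2 UMIs. Cells thinned to 1000 UMIs gave a C3 UMI in 98.6% of WT and 99.2% of Aromhum mesothelial cells, and a C4b UMI in 22.7% and 57.1%. The direction turned for C2 in fibroblast-like cells within the full limits (log2 fold change 0.33; -0.36 to 0.17 with 1 mouse left out), for C4b in macrophages (-0.54 to 0.71) and for C1s1 in mesothelial cells (-0.084 to 0.15). None of these 3 passed in any alternative. Among the values of single genes under the alternatives, 748 kept their direction and side of the threshold, 73 newly passed, 74 no longer passed and 8 changed direction. Mmp3-hi fibroblasts and T cells had too few cells for a test within the full limits. The small number of mice and the 67 to 84 macrophages of WT3 and Arom3 limit what these data can show.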
